A study of Mus musculus with 4 samples.

Results

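The IQ motif containing genes are named for a short amino acid motif, with isoleucine followed by glutamine at its core, through which a protein can bind calmodulin and related calcium-binding proteins. The 7 genes described here are Iqub, Iqcb1, Iqcd, Iqce, Iqcg, Iqch and Iqck. They were selected by their symbols out of 22311 gene symbols with an expression value. The rule did not use those values, but it was set with earlier results of these data known. All 7 passed the filter on low values, which kept genes that reached 1 FPKM in 2 or more of the 4 samples and left 12985 genes for testing. FPKM, fragments per kilobase of transcript scaled to the number of mapped fragments, is a level that allows for transcript length.

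RNA was sequenced from whole testes of male mice that were 24 days old, an age at which the first wave of spermatogenesis has produced round spermatids and elongation is beginning. There were 2 mutant samples, labelled rfx2-/-, and 2 control samples. The labels call the controls wild type and the strain DBA for both groups, whereas the study's methods state heterozygous controls and a mixed background of 129/s6 and C57BL/6, so control levels may come from mice with 1 intact Rfx2 allele. The mutant allele lacks a pair of exons encoding the DNA binding domain of RFX2, carries a neomycin resistance cassette in their place, is present in all tissues and was derived from 1 targeted embryonic stem cell clone. The methods describe the samples of a genotype as biological replicates. With 2 in each group, the limma p-values, standard errors and intervals rest on these 4 samples alone. Each gene's variance was also pulled toward the trend over all tested genes.

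RFX2 is a transcription factor that binds a palindromic sequence called the X-box and is known for switching on genes of the cilium and of the sperm tail. Most products of the IQ genes belong to such structures. The axoneme, the microtubule core of a cilium or sperm flagellum, bears radial spokes, and next to them lies the nexin-dynein regulatory complex, which links neighbouring microtubule doublets and controls the dynein motors. The transition zone at the base of the cilium is a gate for proteins entering it. IQUB, which also has a ubiquitin-like domain, lies at the base of radial spokes, IQCD and IQCG are subunits of the nexin-dynein regulatory complex, IQCB1 (nephrocystin-5) binds CEP290 at the transition zone, and IQCE anchors the Ellis-van Creveld proteins near the base of the primary cilium. IQCH and IQCK are less well characterised.

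Each IQ gene was searched for the X-box near its start, because the sequence was not used to choose the genes. The motif, made of 2 inverted arms with a gap of 0 to 3 bases, was searched on both strands within 1000 bases of the start. The start was the annotated 5′ boundary of the gene over all its transcripts, in the NCBIM37 (mm9) annotation. A match found on both strands at the same place was counted as 1. A match without mismatch was found at 2 of the 7 genes, Iqcd and Iqch (95% Clopper-Pearson interval of the share 3.67 to 71.0%), against 4.6% of the 12330 tested genes that could be searched. That interval includes 4.6%, and it treats the 7 genes as drawn at random, although they were selected by their symbols. With 1 mismatch allowed, 7 of 7 IQ genes and 47.9% of the tested genes had a match. Within 300 bases of the start, again with 1 mismatch allowed, these were 6 of 7 and 22.1%. The share of all genes with a match within 100 bases was not computed. The sites shown are the matches closest to the start in the 5 genes that had a match within 100 bases of it, written 5′ to 3′ on the strand of the gene, with the match, its gap included, in capitals and 8 bases on either side.
Iqcd: agtggctcGTAACCTAGCAACataagggc
Iqch: cgcgccgcGTTGCTATGGTGACgggtgccc
Iqub: agctggcaGTTGCTAGGATACgccagcaa
Iqcg: cgcgacgcGTTGCCATAGCTACcgattagt
Iqce: gcggcacgGTTGCCATGGTACCagggcggc
The match of Iqcd lies at chr5:121039034-121039046 on the plus strand, 9 to 21 bases after the start, and that of Iqch at chr9:63450301-63450314, which ends at the last base before the start of this minus-strand gene. The match of Iqub, at chr6:24465066-24465078, overlaps the start of this minus-strand gene, has 1 mismatch and was found on the strand opposite to the gene. Those of Iqcg at chr16:33056278-33056291 and of Iqce at chr5:141178243-141178256, both minus-strand genes, were found on both strands, also have 1 mismatch and begin 13 and 76 bases after the start. Iqcb1 and Iqck had their closest matches 201 and 366 bases after the start, each with 1 mismatch. A match of letters is a description of the sequence, and RFX2 binding was not measured in the files used here.

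**Figure D1:**
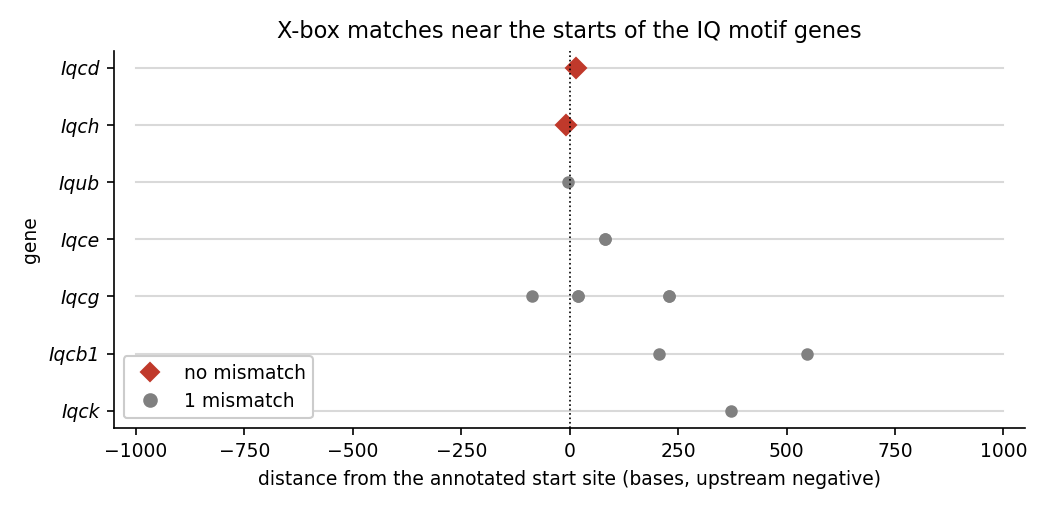
Position of X-box matches with at most 1 mismatch around the start of each of the 7 IQ genes, in bases from the annotated 5′ boundary of the gene (negative values are upstream). Red diamonds are matches without mismatch, at Iqcd and Iqch, and grey circles have 1 mismatch, and the match of Iqub spans positions -11 to 1.

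The libraries were first examined for the targeted gene and for cell type markers. Rfx2 itself was measured at 36.7 and 39.8 FPKM in mutants 1 and 2 and at 123.1 and 89.4 FPKM in controls 1 and 2, a log2 fold change of -1.43 ± 0.19 (SE, n = 2 per group) with an adjusted p of 0.00617 by limma with Benjamini-Hochberg adjustment. The value covers the whole gene, including exons that the mutant allele retains, and this call was lost without control 1 (adjusted p = 0.0628 by limma, range 1.05e-08 to 0.320 over the alternatives). Mutant 1 stood apart in the elongating spermatid markers (7 of 7 measured, none called by limma and 0 at an unadjusted p under 0.05), which summed to 1164 FPKM in it, to 6128 FPKM in mutant 2 and to 5142 to 7631 FPKM in the controls. The summed markers stood at 18.2% of the control mean in mutant 1 and 96.0% in mutant 2, so a fit without mutant 2 rests on mutant 1 for the mutant level. The round spermatid markers (6 of 6 measured) summed to 306.3 and 491.2 FPKM in the mutants and to 399.6 to 462.7 FPKM in the controls. Of the tested markers of Sertoli cells (9), Leydig cells (5), macrophages (4), myoid cells (4), spermatogonia (7) and spermatocytes (7), 0 were called by limma and 0 had an unadjusted p under 0.05, with list medians of -0.13 to 0.11 on the log2 scale. The shares over all tested genes were 2.52% called lower and 0.308% higher, with 6.68% lower and 2.01% higher at the unadjusted p. Among all marker genes tested Dpy19l2, a round spermatid gene required for the acrosome, was the 1 called, with a log2 fold change of -1.14 (adjusted p = 0.0145, limma). The call of Dpy19l2 was lost without control 1 and without control 2. Other marker calls, of spermatid and Leydig cell genes among them, appeared without mutant 2, a fit that leaves 1 mutant sample.

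Of the 7 IQ genes, 1 was called lower in the mutants and 0 were called higher at an adjusted p under 0.05 (limma on log2(FPKM + 1), two-sided, Benjamini-Hochberg over all tested genes). The called gene was Iqub, which was almost lost. Among all tested genes, 2.52% were called lower and 0.308% higher. In 5 of the 7 genes both mutants lay below both controls, a pattern seen in 15.2% of the tested genes. In 0 of the 7 did both mutants lie above both controls, against 16.3% of the tested genes. Mean FPKM were at least 2-fold lower in the mutants for 1 of the 7, again Iqub, against 4.09% of the tested genes, and Iqck fell just short at 1.99-fold. At an unadjusted p under 0.05, 3 of the 7 were lower and 0 higher, against 6.68% and 2.01% of the tested genes. Over the 7 the median change was -0.28 on the log2 scale, beside 0.03 over every tested gene. The median of the 7 was -0.48 without mutant 2, and it was -0.0186 after scaling to spermatid markers, which moved the median of all genes by 0.26.

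Iqub lies at chr6:24394865-24465067 on the minus strand and has 1 annotated coding transcript of 13 exons. Its level was 0.818 and 0.812 FPKM in the mutants and 41.5 and 37.3 FPKM in the controls. The 2 mutants were nearly identical, and the groups were far apart. The means were 0.815 ± 0.00459 and 39.4 ± 2.94 FPKM (SD, n = 2 each), so that the mutants held 2.07% of the control level, a 48.3-fold fall. On the log2(FPKM + 1) scale the change was -4.47 ± 0.20 (SE), with a 95% interval of -4.94 to -4.01 and an adjusted p of 2.61e-05 (limma, Benjamini-Hochberg), and it ranked 11th by p among the 12985 tested genes. The pseudocount of 1 makes this smaller than the change of the FPKM themselves, which the ratio of the means gives. Iqub was among the genes that the study followed up on the basis of these samples, so its fall is not independent evidence of that choice. The study also measured its followed-up cilia genes, Iqub included, by real-time PCR, and reported most of them as significantly lower in the mutants.

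The confidence bounds deposited with each FPKM show how well the level was measured within a library. For Iqub they ran from 0.641 to 0.996 FPKM in mutant 1, began at 0.621 FPKM in mutant 2, and ran from 40.2 to 42.8 FPKM and from 36.1 to 38.5 FPKM in the controls. If these bounds stand 2 Poisson standard deviations on each side, they correspond to about 85 and 72 fragments in the mutants and 4119 and 3927 in the controls. The low level in the mutants was thus measured above 0 in both libraries.

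In the controls Iqub was expressed above 90.1% of all genes, and in the mutants above 41.4%. Its position among the IQ genes changed accordingly. In the controls the order by mean FPKM, which allows for transcript length, was Iqcd at 54.1, Iqch at 53.7, Iqub at 39.4, Iqce at 34.5, Iqcg at 28.9, Iqcb1 at 25.7 and Iqck at 7.66. The samples of Iqcd and Iqch, of Iqub and Iqce, and of Iqcg and Iqcb1 overlapped, so these neighbours did not differ beyond their spread. In the mutants the order was Iqch at 45.4, Iqcd at 33.7, Iqcb1 at 29.3, Iqce at 28.4, Iqcg at 24.8, Iqck at 3.84 and Iqub at 0.815 FPKM. There the samples of the 4 genes from Iqcd to Iqcg overlapped from one neighbour to the next, whereas Iqch lay above them and Iqck and Iqub below.

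**Figure D2:**
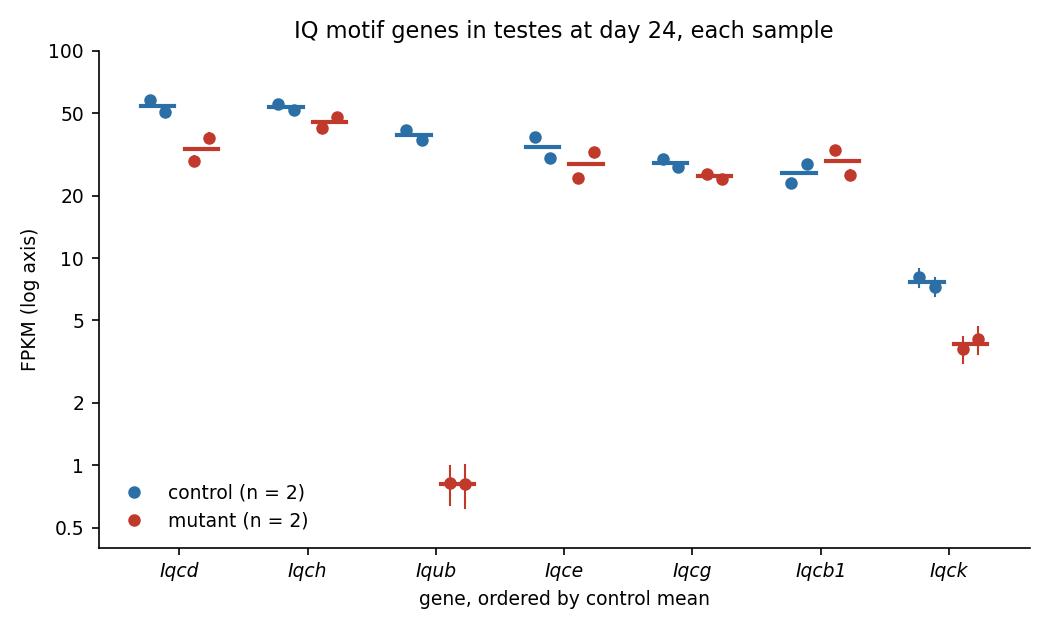
FPKM of the 7 IQ genes in each of the 4 samples, on a log axis, with 1 point per sample, a horizontal bar at the mean of each group of 2, and vertical lines for the deposited confidence bounds where they exceed the point. Iqub is near 0.8 FPKM in both mutants and at 37.3 and 41.5 FPKM in the controls, and the other 6 genes stay above 3 FPKM in every sample.

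Whole testis was sequenced, so fewer cells of a type and less RNA per cell cannot be told apart. The levels of spermatid markers are therefore given beside those of Iqub. Relative to the control mean, Iqub stood at 2.08% in mutant 1 and 2.06% in mutant 2. In the same samples the summed round spermatid markers stood at 71.0% and 113.9%, and the summed elongating spermatid markers at 18.2% and 96.0%. The level of Iqub was alike in the 2 mutants, and both marker sums of mutant 2 were within or above the range of the controls. Within those sums, Tnp1 (998.7 FPKM), Prm1 (1195) and Dpy19l2 (23.3) lay below both controls in mutant 2. The other markers of both lists were within or above the control range there. The part of spermatid numbers in the fall of Iqub was not tested. Expressed as a share of the summed round spermatid markers, Iqub was at 0.267% and 0.165% in the mutants and at 8.96% and 9.34% in the controls. Without mutant 1 the log2 fold change of Iqub was -4.48, and without mutant 2 it was -4.47. Markers of multiciliated cells (4 of 4 measured, 3 tested) summed to 36.0 and 54.4 FPKM in the mutants and 63.2 to 89.4 FPKM in the controls. None was called by limma, beside 2.52% of all tested genes called lower and 0.308% higher. At an unadjusted p under 0.05, 2 were lower and 0 higher, beside 6.68% and 2.01% of all tested genes. The summed markers stood at 47.2% and 71.3% of the control mean in mutants 1 and 2. Nearly all of that sum came from Foxj1 and Ccdc67, while Ccno was at most 1.51 FPKM and Gm6320 (Mcidas) at most 0.0723 FPKM and at 0 in control 1. Whether multiciliated cells were present, and their part in the fall of Iqub, was not tested.

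**Figure D3:**
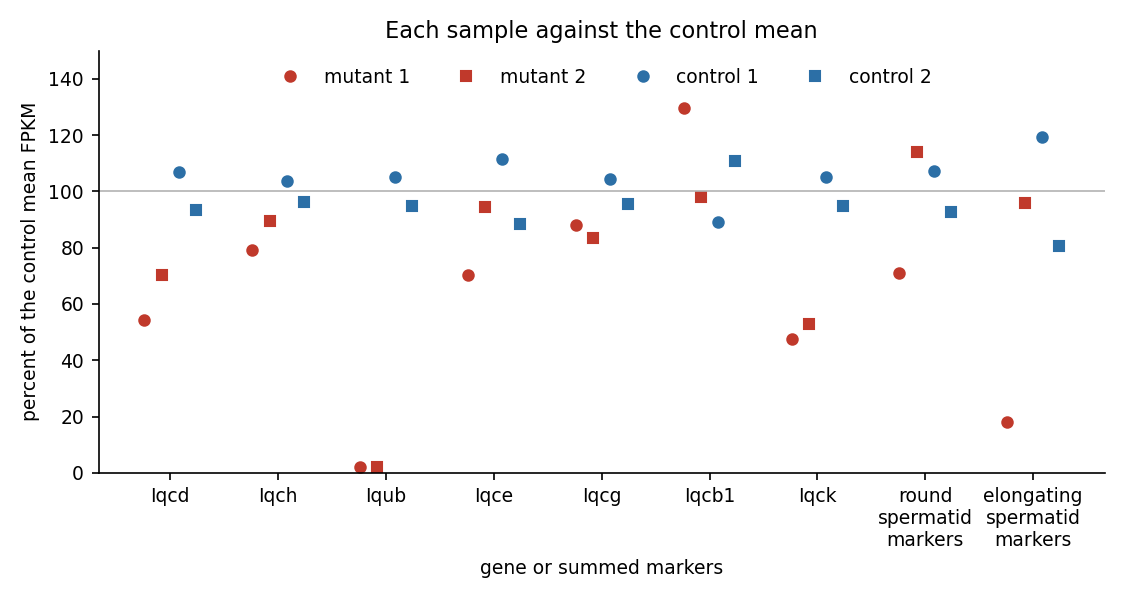
Level in each of the 4 samples as a percent of the control mean, for the 7 IQ genes and for the summed markers of round and elongating spermatids, with mutants in red and controls in blue. In the mutants Iqub is at 2.08% and 2.06%, while the elongating spermatid markers are at 18.2% in mutant 1 and 96.0% in mutant 2.

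Iqck, at chr7:125999274-126116166 on the plus strand, had the next largest difference. It was measured at 3.64 and 4.05 FPKM in the mutants and at 8.07 and 7.26 FPKM in the controls. Both mutants were below both controls, at 47.5% and 52.8% of the control mean. The log2 fold change was -0.84 ± 0.21 (SE, n = 2 per group; 95% interval -1.32 to -0.35), but after adjustment over all tested genes the p was 0.110 by limma, and Iqck was called under none of the 16 alternatives. It was the least expressed IQ gene in the controls, with about 404 to 423 fragments behind each control value. As a share of the round spermatid markers it was also lower in both mutants, at 1.19% and 0.824%, than in the controls, at 1.74% and 1.82%.

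The 2 subunits of the nexin-dynein regulatory complex differed in their values. Iqcd, which encodes DRC10 and lies at chr5:121039025-121057123, was at 29.4 and 38.0 FPKM in the mutants and at 57.8 and 50.5 FPKM in the controls. The groups did not overlap, and the mutants held 54.3% and 70.3% of the control mean. Its log2 fold change was -0.68 ± 0.18 (SE, n = 2 per group; 95% interval -1.10 to -0.25), with an adjusted p of 0.155 by limma. Iqcd was called when mutant 2 was left out (log2 fold change -0.86, adjusted p = 0.00273 by limma, range 0.00273 to 0.901 over the alternatives) and not when mutant 1, the sample with few elongating spermatid transcripts, was left out (-0.50). Iqcg, which encodes DRC9 and is needed to build the sperm flagellum in mice, was at 25.5 and 24.0 FPKM in the mutants and 30.1 and 27.6 FPKM in the controls. Its groups did not overlap either, but the log2 fold change of -0.21 ± 0.16 (SE) had a 95% interval of -0.59 to 0.16 and an adjusted p of 0.9999 (limma). As a share of the round spermatid markers Iqcd was lower in both mutants, at 9.60% and 7.74% against 12.5% and 12.6%, whereas Iqcg overlapped between the groups, at 8.31% and 4.89% against 6.52% and 6.90%.

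Of the 2 genes whose products act at the ciliary base, neither was called and both overlapped between the groups. Iqcb1, at chr16:36828471-36872807, was at 33.3 and 25.2 FPKM in the mutants and 22.9 and 28.5 FPKM in the controls. Mutant 1 had the highest value and mutant 2 fell between the controls. The log2 fold change of Iqcb1 was 0.18 ± 0.20 (SE, n = 2 per group), with a 95% interval of -0.29 to 0.64 and an adjusted p of 0.9999 (limma), and it was -0.02 without mutant 1. Iqce, at chr5:141137781-141178332, was at 24.2 and 32.6 FPKM in the mutants and 38.5 and 30.5 FPKM in the controls. Its lowest value was that of mutant 1, and mutant 2 again lay between the controls. The log2 fold change of Iqce was -0.28 ± 0.21 (SE), with a 95% interval of -0.75 to 0.20 and an adjusted p of 0.9999 (limma).

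Iqch, at chr9:63269262-63450300 on the minus strand, was at 42.5 and 48.2 FPKM in the mutants and at 55.7 and 51.8 FPKM in the controls. Both mutants were below both controls by a small margin. The log2 fold change was -0.24 ± 0.16 (SE, n = 2 per group; 95% interval -0.61 to 0.13), with an adjusted p of 0.9999 (limma). As a share of the round spermatid markers Iqch was at 13.9% and 9.81% in the mutants, with both controls between these values. Iqch and Iqcd, with an X-box without mismatch beside the start, had log2 fold changes of -0.24 and -0.68. The other members, whose best match had 1 mismatch, had changes from -4.47 for Iqub to 0.18 for Iqcb1. Whether the match goes with the change was not tested. For the 4 IQ genes whose intervals include 0 these intervals bound the change, and a p that misses the threshold does not show that their levels were the same.

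**Figure D4:**
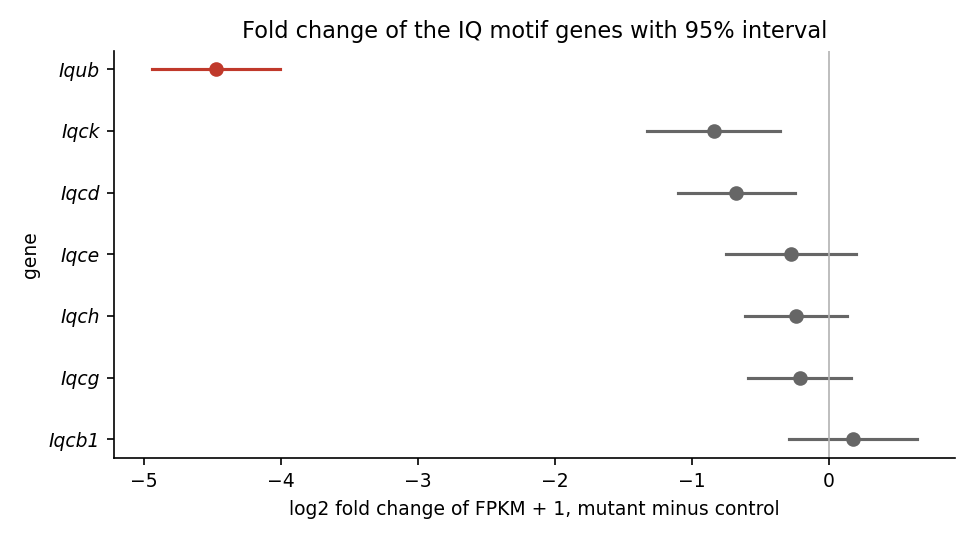
Log2 fold change of FPKM + 1, mutant minus control, for the 7 IQ genes, with 95% intervals from limma as bars. The interval of Iqub, -4.94 to -4.01, does not meet that of any other IQ gene, and those of Iqce, Iqch, Iqcg and Iqcb1 include 0.

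The change of Iqub was also described against that of the other members within each sample. Iqub was the 1 called gene, so setting it apart used these same values. On the log2(FPKM + 1) scale, Iqub minus the mean of the other 6 genes was -3.65 and -3.75 in the mutants and 0.45 and 0.40 in the controls. The groups differed by -4.13 log2 units and did not overlap. The exact permutation test (two-sided) gave p = 0.333, the smallest that 2 against 2 samples allow, so it could not decide whether they differed. Against each of the other 6 genes singly, the mutant minus control difference ranged from -3.64 log2 units for Iqck to -4.65 for Iqcb1.

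The 3 tested genes whose pattern over the 4 samples was closest to that of Iqub, by the Euclidean distance between centred log2(FPKM + 1) values, were Fam161a, Fam194a and Apobec4. Fam161a encodes a centrosomal and ciliary protein, and it was at 0.765 and 0.717 FPKM in the mutants and 36.3 and 34.4 FPKM in the controls, at a distance of 0.106 from Iqub. Fam194a was at 0.215 FPKM or just above in both mutants and at 25.2 and 22.2 FPKM in the controls (distance 0.133). Apobec4, a member of a family of cytidine deaminases, was at 0.0486 and 0.0570 FPKM in the mutants and at 20.5 and 19.9 FPKM in the controls (distance 0.164). All 3 had near-complete losses with close replicates, as Iqub did, and they were selected for that likeness, so no test is given. Fam161a and Apobec4 were also among the genes that the study followed up on the basis of these samples.

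The partners of the IQ proteins were described with the same fit. Of the 9 other genes of the nexin-dynein regulatory complex, all tested, 5 were called lower and 0 higher, with a median log2 fold change of -0.76. Among all tested genes, 2.52% were called lower and 0.308% higher. Ccdc164 (DRC1), a core subunit, was at 1.05 and 0.494 FPKM in the mutants and 67.8 and 56.8 FPKM in the controls. The other 4 called were Ccdc135 (DRC7), Ccdc65 (DRC2), Gas8 (DRC4) and Lrrc48 (DRC3). The study followed up Ccdc164, Ccdc135 and Ccdc65 on the basis of these samples, so their falls are not independent evidence of that choice. Ccdc135 fell from 39.0 and 29.1 FPKM in the controls to 0.972 and 0.887 FPKM in the mutants. Ccdc65, which had the highest mean of the list over the 4 samples, was at 19.1 and 18.8 FPKM in the mutants and 153.4 and 127.2 FPKM in the controls, and the log2 fold changes of Gas8 and Lrrc48 were -1.37 and -0.76 (adjusted p = 0.00844 and 0.0454 by limma). These 5 genes spanned -5.17 to -0.76 on the log2 scale, against -0.68 for Iqcd and -0.21 for Iqcg, the 2 subunits among the IQ genes. Fewer of the 9 were called without control 1, a fit that leaves 1 control sample.

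Of the 9 radial spoke genes tested, from 12 listed, 3 were called lower and 0 higher, beside 2.52% and 0.308% of all tested genes. Their median was -0.44. Rsph9, a spoke head protein, was at 0.940 and 1.05 FPKM in the mutants and at 96.8 and 72.9 FPKM in the controls, close to the level of Iqub in the mutants. Rtdr1, now also named Rsph14, was at 0.168 and 0.315 FPKM against 17.3 and 9.69 FPKM, and Dnajb13, a spoke chaperone-like protein, at 29.3 and 49.6 FPKM against 177.3 and 150.2 FPKM. The adjusted p-values (limma) of these 3 genes were 2.14e-05, 0.000446 and 0.00334. Rsph9 was also among the genes that the study followed up on the basis of these samples. Ropn1l, the most expressed gene of the list, was at 940.4 and 1081 FPKM in the mutants and 1187 and 939.4 FPKM in the controls, and its groups overlapped.

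Among 9 genes of the transition zone and of nephronophthisis, the group to which Iqcb1 belongs, none was called by limma, while 3 were lower and 1 higher at an unadjusted p under 0.05, beside 6.68% and 2.01% of all tested genes. Both mutants were below both controls in 6 of the 9 and above them in 1, beside 15.2% and 16.3% of all tested genes, and the median was -0.27. None of the 3 tested Ellis-van Creveld complex genes, the partners of Iqce, was called by limma, and 0 had an unadjusted p under 0.05 (median -0.12). Efcab7, which recruits IQCE to that complex, was at 10.4 and 9.35 FPKM in the mutants and 13.5 and 11.1 FPKM in the controls. Of 11 tested calmodulin and calmodulin-dependent genes none was called by limma and 0 had an unadjusted p under 0.05 (median 0.11), and Calm2, one of the genes encoding calmodulin itself, was at 455.6 and 383.0 FPKM in the mutants and 380.1 and 383.8 FPKM in the controls. Over all tested genes 2.52% were called lower and 0.308% higher. Lists of this size can therefore hold 0 calls without their levels being the same.

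Of 16 other tested genes with an IQ domain, 1 was called lower and 0 higher, beside 2.52% and 0.308% of all tested genes. Their median log2 fold change was -0.13. The called gene was Lrriq4, at 1.88 and 2.79 FPKM in the mutants and 18.2 and 16.2 FPKM in the controls (log2 fold change -2.46, adjusted p = 0.000875 by limma). Further genes of this list were called higher without mutant 1, and further genes were called lower without mutant 2. Each of these fits leaves 1 mutant sample. Iqca, a further subunit of the nexin-dynein regulatory complex and a member of both lists, was at 9.77 and 9.98 FPKM in the mutants and 9.05 and 6.32 FPKM in the controls.

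**Figure D5:**
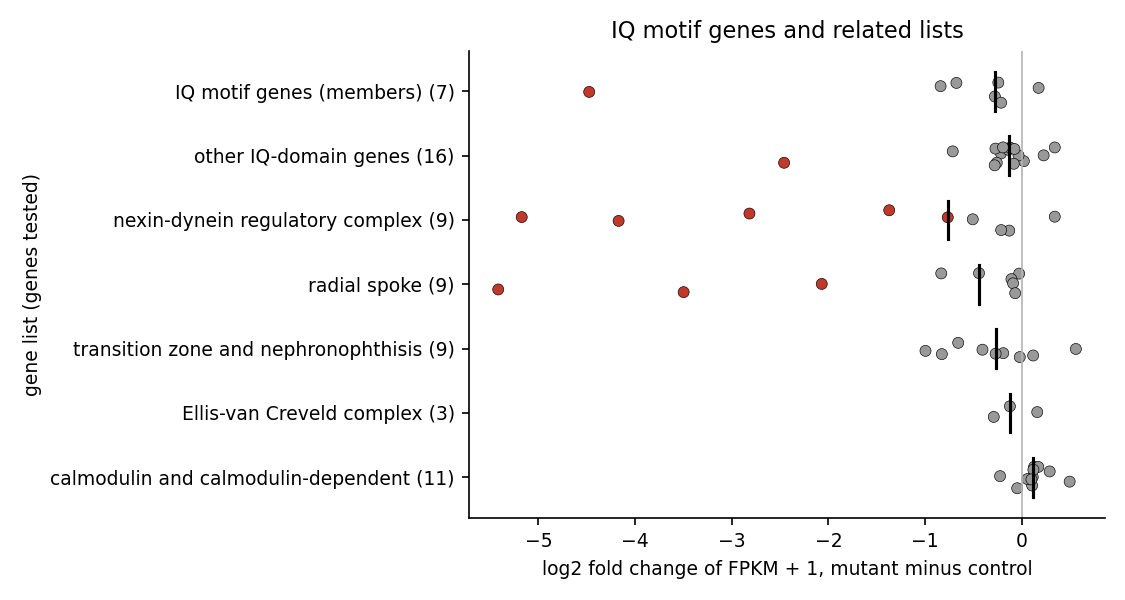
Log2 fold change of FPKM + 1, mutant minus control, for each tested gene of the IQ group and of the lists of partner genes, with 1 point per gene (spread vertically for legibility), a black bar at the median of each list and genes called by limma in red. The called genes lie in the nexin-dynein regulatory complex, radial spoke, IQ motif and other IQ-domain groups, at log2 fold changes of -5.41 to -0.76.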

How the data were processed

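Total RNA from 4 testis samples was sequenced on a HiSeq 2000. Per the study's methods and the submitters' processing notes, the authors aligned reads with TopHat2 2.0.6 to mm9 and deposited 1 table per sample of FPKM, with confidence bounds, from Cufflinks and Cuffdiff. FPKM hold no fragment counts, so no depth was taken from the files; 12557 to 12942 genes per sample reached 1 FPKM. Cuffdiff cannot be rerun from FPKM. Rows sharing a symbol were summed. Groups came from the genotype labels. Genes that reached 1 FPKM in 2 or more of the 4 samples were tested with limma 3.58.1 (R 4.3.3), on log2(FPKM + 1) with a mean-variance trend, 2 residual degrees of freedom, and Benjamini-Hochberg adjustment at 0.05. The test was checked on simulated data. Fold changes on this scale understate those of low genes.

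The members and gene lists were chosen with earlier results of these data known. Named genes were the 7 members, Rfx2, each called gene and the most expressed gene of each list of partner genes, and the 3 genes most like each called member. Iqca, Iqcf1, Iqcf5, the multiciliated cell markers and the neighbouring genes were named outside this rule, after their values were seen. The most expressed gene of 1 list is not reported here. Marker lists covered Sertoli, Leydig, macrophage, myoid, spermatogonial, spermatocyte, spermatid and multiciliated cells.

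Coordinates and sequences came from the NCBIM37 genome and GENCODE vM1, with Python 3.11.15, numpy 2.4.6 and pandas 2.3.3. Alternatives were the pseudocount (0.1, 0.01), the filter (none, 5 FPKM), median-ratio, quantile and spermatid-marker scaling, the eBayes settings, the highest instead of the summed entry, a replicate block, leaving out each sample, and other X-box windows and mismatches. Counting of overlapping genes by strand is not given in the sources used here.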

Additional observations from a re-analysis of the deposited data

How the results depend on the processing

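Iqub was called lower under all 16 alternatives, with log2 fold changes of -5.58 to -4.22 and adjusted p-values (limma) of at most 0.00534. The number of IQ genes called lower was 1 throughout, except 2 under robust eBayes, where Iqcd was added (adjusted p = 0.0465, range 0.00273 to 0.901), and 1 to 2 when single samples were left out (2 without mutant 2). The median log2 fold change of the IQ genes was -0.48 to -0.19 when single samples were left out. Spermatid-marker scaling moved the median of all genes by 0.26, and gave a median of -0.0186 for the IQ genes and changes of 0.0459 for Iqcg and 0.0169 for Iqch, neither of them called. With single samples left out the change of Iqcb1 ranged from -0.0189 (without mutant 1) to 0.37. Over all genes, 327 were called lower and 40 higher. The respective counts were 199 and 17 without a filter, 202 and 17 with a filter at 5 FPKM, 216 and 16 with median-ratio scaling, 134 and 20 with spermatid-marker scaling, and 525 and 70 with a replicate block, with 67 called higher under robust eBayes. With single samples left out they ranged from 167 (without control 1) to 948 (without mutant 2) for lower and from 13 to 162 for higher. Rfx2 was not called without a filter (adjusted p = 0.0607), with median-ratio scaling (0.0730) or with spermatid-marker scaling (0.320), its range being 1.05e-08 to 0.320. The cause of these shifts was not tested. Between samples with the same replicate number the deviations from the group means had a correlation of -0.154. With 2 samples per group the crossed numbers must give the opposite value, so this cannot decide whether the numbers pair the samples. The crossed pairing, added after seeing the data, gave 266 lower and 28 higher. With a block or a sample left out, 1 residual degree of freedom remained, and a lone sample was assumed to vary like the other group. Allowing 1 mismatch gave X-box matches at 7 of 7 IQ genes.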

Other observations

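A family of IQ motif genes outside the 7 differed between the mutant samples. The 5 Iqcf genes measured, named after their values were seen, were each lowest in mutant 1 and highest in mutant 2. Iqcf3, the most expressed of the other IQ-domain genes, was at 82.3 and 225.9 FPKM in mutants 1 and 2 and at 151.9 and 145.1 FPKM in the controls. Iqcf5 was at 73.3 and 157.4 FPKM in the mutants and 90.8 and 92.6 FPKM in the controls, and Iqcf1 at 39.2 and 138.1 FPKM against 84.5 and 62.5 FPKM. None of the 5 was called by limma. The summed elongating spermatid markers were also lowest in mutant 1, at 1164 FPKM, while mutant 2, at 6128 FPKM, lay between the controls. The part of these cells in the Iqcf values was not tested.
Annotated starts of other genes lay within 2000 bases of the starts of 4 IQ genes, a distance chosen after the data were seen. Tpcn1, which encodes a two-pore calcium channel, starts at position -403 from the start of Iqcd, on the opposite strand. It was at 6.84 and 4.85 FPKM in the mutants and 7.15 and 6.90 FPKM in the controls, with a log2 fold change of -0.25 beside -0.68 for Iqcd. The log2 fold changes of the other 3 neighbours were 0.10 for Rpl35a beside -0.21 for Iqcg, 0.08 for Aagab beside -0.24 for Iqch, and -0.18 for 2310008H09Rik beside -0.84 for Iqck. None of the 4 was called by limma. No such neighbour was found for Iqub, Iqcb1 and Iqce.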
